A study of Homo sapiens with 14 samples.

Results

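The 9 genes described here encode the spliceosomal RNA helicases DDX46, DDX23, SNRNP200, DHX16, AQR, DHX38, DHX8 and DHX15, together with EFTUD2, the GTPase of the U5 small nuclear ribonucleoprotein. They were taken by gene symbol from 57756 genes of the deposited tables, and they account for 106 of 195553 isoforms. All 9 genes passed the filter of a mean of at least 1 FPKM (fragments mapped to a transcript, scaled by its length and by the depth of the library) and were among the 14233 genes tested, while 26 of their isoforms could be tested for usage.

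RNA was sequenced from A549 cells, an adherent human lung carcinoma line, in 14 libraries forming 7 groups of 2. Cells depleted of U2AF1 were infected with virus carrying the S34F mutant of U2AF1_v3, wild-type U2AF1_v3, the S34F mutant of U2AF1_v1 or wild-type U2AF1_v1, where v1 and v3 are 2 isoforms of U2AF1. The knockdown group had the same depletion with an empty vector, the control group received a control siRNA with the empty vector, and the last group was left untreated. The study asked how wild-type and S34F U2AF1 of both isoforms affect splicing. The labels name neither the promoter of the constructs nor whether replicates were separate cultures, and the p-values therefore reflect the variation among these libraries alone, part or all of which may be technical. In bulk RNA, fewer cells with a transcript and less of it per cell cannot be told apart.

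U2AF1 is the small subunit of the factor that reads the AG at the 3′ end of introns, and S34F is a substitution in one of its zinc fingers. Splicing proceeds through a series of RNA rearrangements, most of them driven by a dedicated ATPase of the DEAD-box, DEAH-box or Ski2-like family. DDX46 acts when the U2 particle pairs with the branch site, DDX23 when U6 takes the place of U1 at the 5′ splice site, and SNRNP200 unwinds U4 from U6 under the control of EFTUD2 and PRPF8. DHX16 and AQR act around catalytic activation, DHX38 between the catalytic steps, DHX8 in the release of the mRNA and DHX15 in the release of the lariat and the disassembly of the particle.

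Sequences of 2 kinds bear on these genes. The first set holds 3′ splice sites of introns that lie whole within retained-intron isoforms of the genes, because the AG and the base before it are what U2AF1 contacts. Such sites were read from GENCODE release 29 transcripts (GRCh38) for 15 introns of 6 genes. All 15 introns ended in AG. The base before the AG, at position -3, was C in 10 introns, T in 4 and A in 1. The shares of these bases over the introns of all genes were not counted. Shown for each of the 6 genes are the sites in 1 retained-intron isoform, the one of highest mean usage among those that hold such a whole intron, with 20 intron bases and 3 exon bases. Capitals mark the base at -3 and the AG.
DDX46 intron 17, chr5:134811676-134811698 (+): tcgttttctttttttgaAAGgag
DDX46 intron 19, chr5:134817476-134817498 (+): taagtcttctttaactaCAGgat
DDX23 intron 6, chr12:48837655-48837677 (-): ttgctttctttggtctgCAGaag
SNRNP200 intron 31, chr2:96284002-96284024 (-): ccctccctccctctttcCAGcct
SNRNP200 intron 34, chr2:96281920-96281942 (-): ctctcccctctactgctCAGggg
DHX38 intron 14, chr16:72104466-72104488 (+): cgagccgcctcttctctCAGgta
DHX8 intron 18, chr17:43520110-43520132 (+): cttcttcctttctgttcTAGgcc
EFTUD2 intron 23, chr17:44853633-44853655 (-): tccctccacctcctttaCAGtga

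Of the isoforms that hold these introns, those of DDX23 (ENST00000551098, 6.18% of the gene's FPKM on average) and DHX38 (ENST00000569935, 10.1%) were frequent enough for the usage test. The second set holds the promoters of DDX46, EFTUD2, SNRNP200 and DHX15, the genes whose knockdown libraries lay outside the range of all others. They run from 250 bases before to 50 bases after the RefSeq start (GRCh38.p14), at chr5:134758529-134758828 (+ strand) for DDX46, chr17:44899396-44899695 (- strand) for EFTUD2, chr2:96305497-96305796 (- strand) for SNRNP200 and chr4:24584505-24584804 (- strand) for DHX15. Capitals mark matches on either strand to the GC box (GGGCGG), the CCAAT box (CCAAT), the ETS motif (CCGGAAG) and the E-box (CACGTG).
DDX46: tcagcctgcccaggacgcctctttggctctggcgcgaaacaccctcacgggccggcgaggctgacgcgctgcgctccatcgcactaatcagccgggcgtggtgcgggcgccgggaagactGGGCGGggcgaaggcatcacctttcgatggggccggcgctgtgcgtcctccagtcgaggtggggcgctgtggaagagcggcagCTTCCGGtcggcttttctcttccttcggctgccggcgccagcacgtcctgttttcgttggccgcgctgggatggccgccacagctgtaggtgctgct
EFTUD2: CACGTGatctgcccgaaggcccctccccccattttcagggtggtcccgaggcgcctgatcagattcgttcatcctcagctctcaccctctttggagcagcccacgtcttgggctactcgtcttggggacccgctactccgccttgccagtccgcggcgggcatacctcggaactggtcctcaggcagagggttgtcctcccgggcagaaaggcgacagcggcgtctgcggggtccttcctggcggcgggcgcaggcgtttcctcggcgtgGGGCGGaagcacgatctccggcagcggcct
SNRNP200: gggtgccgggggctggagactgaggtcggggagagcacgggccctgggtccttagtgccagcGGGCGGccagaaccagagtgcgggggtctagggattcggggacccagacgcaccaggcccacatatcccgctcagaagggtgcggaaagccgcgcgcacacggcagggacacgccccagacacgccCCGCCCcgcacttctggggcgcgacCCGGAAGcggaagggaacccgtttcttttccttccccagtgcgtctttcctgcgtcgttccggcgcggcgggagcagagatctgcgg
DHX15: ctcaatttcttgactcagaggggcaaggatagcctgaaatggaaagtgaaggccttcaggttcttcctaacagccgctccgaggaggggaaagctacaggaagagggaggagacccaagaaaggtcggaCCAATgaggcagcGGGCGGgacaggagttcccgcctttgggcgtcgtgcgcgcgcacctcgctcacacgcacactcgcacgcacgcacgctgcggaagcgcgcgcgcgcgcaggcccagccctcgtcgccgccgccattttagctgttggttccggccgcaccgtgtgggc

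Among the promoters of all 9 genes, the ETS motif was found in 6, against 10.3% of 35116 promoters of the same length. The GC box was found in 8 of the 9 promoters, against 45.0% of all. GC content ran from 50.7% to 69.7% in the 9 promoters, with a median of 58.7% over all. The promoters used for the shares were matched neither for GC content nor for expression. The CCAAT box stood in 3 (34.6% of all) and the E-box in 1, that of EFTUD2 (7.26% of all). Matches of the ETS motif lay 47 bases before the start in DDX46 and 37 bases before it in SNRNP200, whereas the promoters of EFTUD2 and DHX15 held no match to these letters.

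The targeted gene was checked in every library. U2AF1 had a gene FPKM of 16.2 and 28.9 in the knockdown libraries, against 117 and 119 in the control siRNA libraries, which left 19.1% of the control mean. The 8 libraries with a U2AF1 construct held 2114 to 3852 FPKM of U2AF1. The line expressed all 5 epithelial markers (summed 2345 to 3331 FPKM) and all 3 enzymes linked to A549, and none of 4 alveolar markers reached a mean of 1 FPKM. Of the markers of other cells, 1 of 4 fibroblast genes and 1 of 4 leukocyte and endothelial genes found reached 1 FPKM, with summed levels of 6.87 to 9.53 and 14.5 to 60.2 FPKM. Relative depth ranged from 0.814 to 1.22 and 13734 to 14705 genes reached 1 FPKM. One isoform held 33.1% of all FPKM in replicate 2 of v1 S34F and one held 8.81% in replicate 1 of the knockdown.

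All 9 genes were well expressed, with gene means above those of 62.7% (DHX16) to 95.5% (EFTUD2) of the genes tested. On the per-length FPKM scale, EFTUD2 had the highest mean over the 14 libraries with 151 FPKM, followed by SNRNP200 with 114, DHX15 with 113, DDX23 with 83.4 and DDX46 with 74.0. DHX38 (38.6), DHX8 (33.7), AQR (30.6) and DHX16 (20.9 FPKM) were lower. In GRCh37, as in the deposited tables, DDX46 lies at chr5:134094469-134190823, DDX23 at chr12:49223547-49246625, SNRNP200 at chr2:96940074-96971297 and EFTUD2 at chr17:42927311-42977030. DHX16 lies at chr6:30620896-30640814, AQR at chr15:35147732-35262040, DHX38 at chr16:72127461-72146811, DHX8 at chr17:41561233-41621831 and DHX15 at chr4:24519064-24586173. Expressed genes overlap 5 of them (C5orf24 with DDX46, CCDC103 with EFTUD2, C6orf136 with DHX16, TXNL4B with DHX38 and ETV4 with DHX8), and without a statement on strand their reads may not be fully separated.

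**Figure D1:**
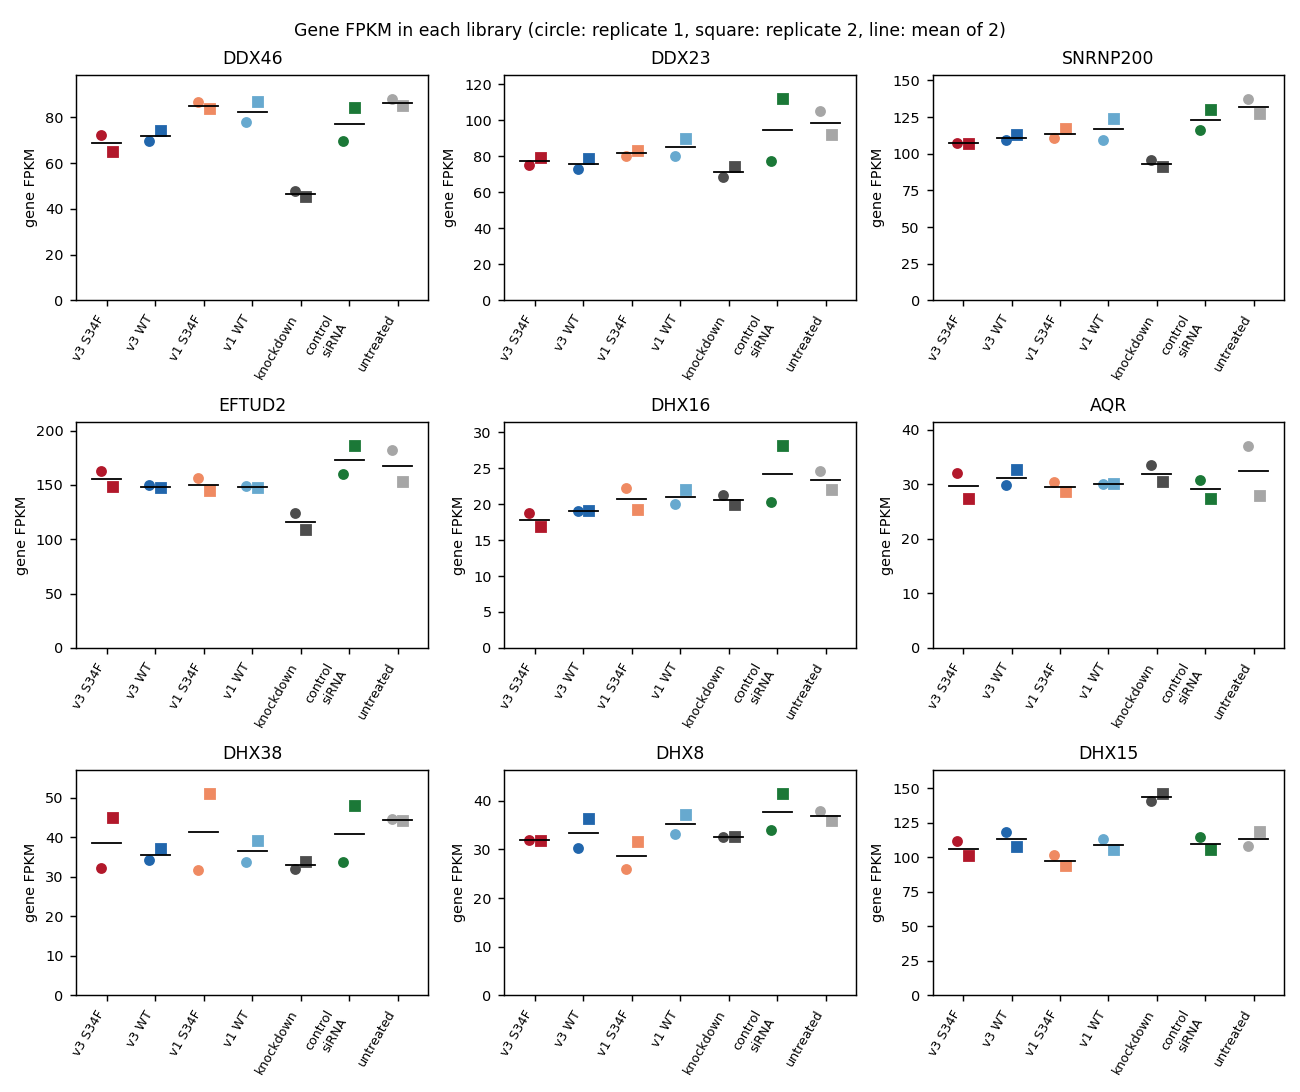
Gene FPKM (y axis, linear, from 0) of each gene in each of the 14 libraries, by group (x axis), with circles for replicate 1, squares for replicate 2 and a line for the mean of 2. Both knockdown libraries lie below all others for DDX46, SNRNP200 and EFTUD2 and above all others for DHX15.

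Knockdown of U2AF1 lowered 2 of the 9 genes, DDX46 and EFTUD2, and the other 7 did not pass the test. Called genes made up 2.85% of the 14233 tested in either direction and 2.06% in the lower direction. The median log2 difference of the 9 genes was -0.28, with 7 below 0, and that of all genes was -0.01. This median rests on replicate 2 of the control siRNA, without which it was -0.06 with 6 below 0, and without replicate 1 of that group it was -0.47.

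DDX46, the helicase of branch-site recognition, had a gene FPKM of 47.8 and 45.0 in the knockdown libraries, against 69.8 and 84.3 in the control siRNA libraries. The groups did not overlap. With 2 libraries a group, such a gap to the control libraries is not a test result. Its share over all genes was not counted, for this gene or those below. The mean was 46.4 ± 1.96 FPKM with the knockdown and 77.0 ± 10.3 FPKM with the control siRNA (SD, n = 2 each), a log2 difference of -0.71 ± 0.12 (SE, limma, adjusted p = 0.0164). The leading protein-coding isoform, ENST00000354283, had 32.4 and 31.5 FPKM in the knockdown libraries, against 47.2 and 54.5 FPKM in the control siRNA libraries, and the deposited confidence bounds of the groups did not overlap. Such bounds also lay apart for EFTUD2 and for SNRNP200, DHX15, DDX23 and DHX38, which were not called. They overlapped for DHX8, DHX16 and AQR. The bounds belong to single libraries and do not measure the spread between replicates. Their separation was not counted over all isoforms.

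DDX46 in the other groups had 72.2 and 65.0 FPKM with v3 S34F, 69.5 and 74.2 with v3 wild type, 86.5 and 83.8 with v1 S34F, 77.8 and 86.8 with v1 wild type, and 88.1 and 84.8 in untreated cells. From the highest mean to the lowest, the order was untreated, v1 S34F, v1 wild type, control siRNA, v3 wild type, v3 S34F and knockdown. In this order the ranges of neighbouring groups overlapped, except that the knockdown lay apart from v3 S34F.

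EFTUD2 had 124 and 108 FPKM in the knockdown libraries, against 160.3 and 186 FPKM in the control siRNA libraries. All knockdown values were below the control ones, with means of 116 ± 11.5 FPKM in the knockdown and 173 ± 17.9 FPKM in the control (SD, n = 2 each). The log2 difference was -0.57 ± 0.12 (SE, limma, adjusted p = 0.0362). Its leading protein-coding isoform, ENST00000592576, stood at 23.8 and 25.3 FPKM in the knockdown libraries and at 39.8 and 56.7 FPKM in the control siRNA libraries, with deposited bounds that did not overlap.

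In the other groups EFTUD2 had 163 and 148 FPKM with v3 S34F, 149.8 and 147 with v3 wild type, 156 and 144 with v1 S34F, 149 and 147 with v1 wild type, and 183 and 152 in untreated cells. Its order from high to low was control siRNA, untreated, v3 S34F, v1 S34F, v3 wild type, v1 wild type and knockdown, with overlapping ranges between all neighbours but the last pair.

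Among the U5 and tri-snRNP ATPases, SNRNP200, which unwinds U4/U6, had 95.5 and 91.0 FPKM in the knockdown libraries, against 116 and 129.7 FPKM in the control siRNA libraries. The groups did not overlap, but the log2 difference of -0.39 ± 0.10 (SE) missed the threshold (limma, adjusted p = 0.0674). DDX23, which acts at the 5′ splice site, had 68.8 and 74.2 FPKM in the knockdown libraries and 77.2 and 112 FPKM in the control siRNA libraries, a log2 difference of -0.38 ± 0.16 (SE, adjusted p = 0.224).

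For SNRNP200 the remaining libraries ran from 107 FPKM in v3 S34F to 138 FPKM in untreated cells. The v3 S34F libraries (108 and 107 FPKM) and the v3 wild-type libraries (109 and 113 FPKM) had the lowest group means after the knockdown, and the order of means went on through v1 S34F, v1 wild type and control siRNA to untreated. The knockdown, v3 S34F and v3 wild-type ranges did not overlap, while each range from v3 wild type upward overlapped the next. How many of all genes have such gaps between these groups was not counted. DDX23 had its highest values in replicate 2 of the control siRNA (112 FPKM) and replicate 1 of untreated cells (105 FPKM), with 72.9 to 91.9 FPKM in the other libraries outside the knockdown.

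DHX15, the disassembly helicase, was the one gene of the set with both knockdown libraries above the control libraries and all others. It had 141 and 146 FPKM in the knockdown libraries, against 114 and 105 FPKM in the control siRNA libraries, a log2 difference of 0.38 ± 0.11 (SE, limma, adjusted p = 0.0820). The other groups lay between 93.3 FPKM in v1 S34F and 119 FPKM in untreated cells, with overlapping ranges between neighbours in the order of means.

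Among the remaining helicases, the groups lay apart by a narrow gap for DHX38 and DHX8 and overlapped for DHX16 and AQR, with no share over all genes counted. DHX38 had 32.0 and 33.8 FPKM in the knockdown libraries, against 33.8 and 47.8 FPKM in the control siRNA libraries (log2 difference -0.28, 95% interval -0.79 to 0.22). DHX8 had 32.5 and 32.6 FPKM with the knockdown and 34.1 and 41.4 FPKM with the control siRNA (-0.20, -0.51 to 0.11). DHX16 had 21.3 and 19.9 FPKM with the knockdown and 20.4 and 28.0 FPKM with the control siRNA (-0.21, -0.55 to 0.14).

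AQR, which binds the intron upstream of the branch site, had 33.5 and 30.5 FPKM with the knockdown and 30.8 and 27.3 FPKM with the control siRNA (0.13, -0.19 to 0.46). Adjusted p-values of these 4 genes were 0.490 or higher in limma. Over all 14 libraries the gene FPKM ran from 31.8 to 51.0 for DHX38, from 25.9 to 41.4 for DHX8, from 16.8 to 28.0 for DHX16 and from 27.3 to 37.0 for AQR.

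**Figure D2:**
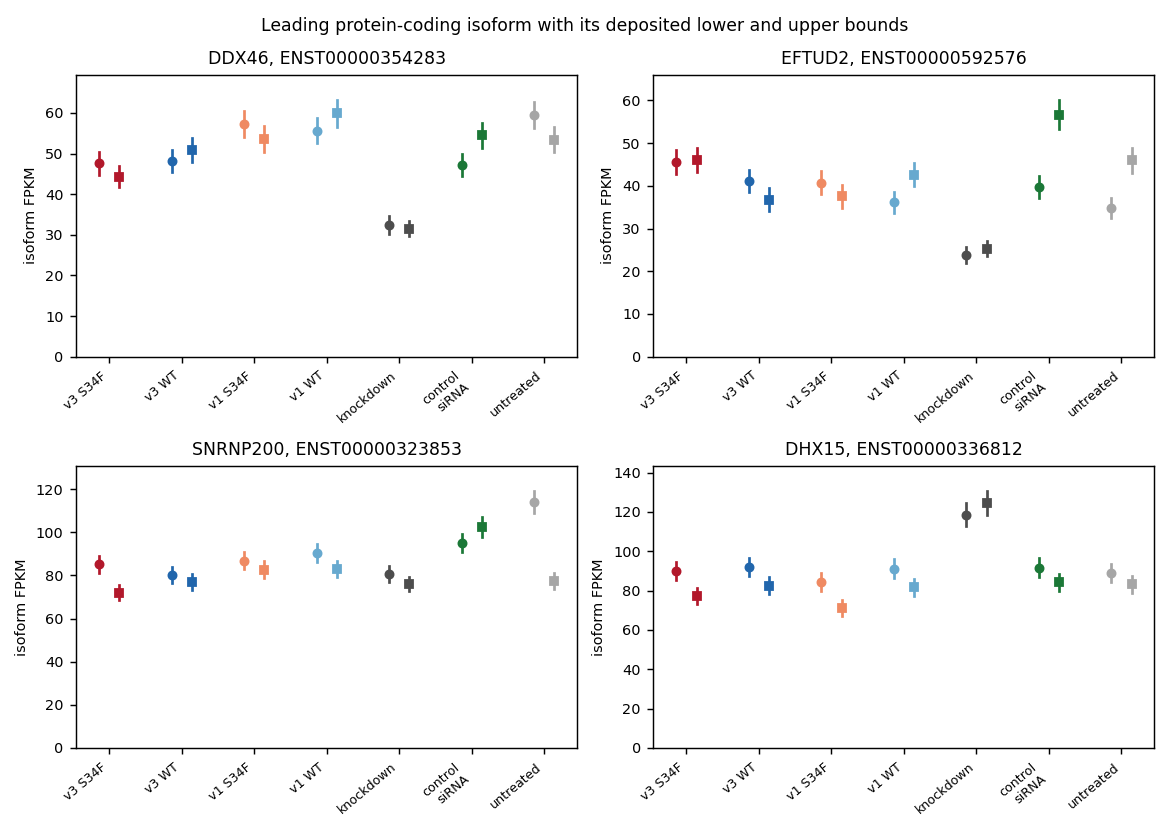
FPKM of the leading protein-coding isoform (y axis, linear, from 0) of DDX46, EFTUD2, SNRNP200 and DHX15 in each library, with the lower and upper bounds deposited by the authors as vertical lines. Knockdown and control siRNA bounds do not overlap for these 4 isoforms, nor for the leading isoforms of DDX23 and DHX38 (not drawn). The SNRNP200 isoform in the knockdown lies within the range of the construct libraries.

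Both knockdown libraries lay below the other 12 for DDX46, SNRNP200 and EFTUD2, as they did for 7.26% of all tested genes, and above the other 12 for DHX15, as for 5.03% of all. With the replicate number as a block, 4 of the 9 genes were called against 11.8% of all genes. They were DDX46 (adjusted p = 0.00431), EFTUD2 (0.0104) and SNRNP200 (0.0238), which were lower, and DHX15 (0.0264), which was higher. When protein-coding isoforms alone were summed, an alternative chosen after seeing the data, the differences were -0.63 for DDX46 (adjusted p = 0.00946) and -0.74 for EFTUD2 (adjusted p = 0.0104), with none of the other 7 called. DHX38 then differed by -0.55 (adjusted p = 0.0804).

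The calls rest on few libraries. DDX46 and EFTUD2 were no longer called without either of the knockdown libraries or without replicate 2 of the control siRNA (adjusted p of 0.0722 to 0.149 for DDX46 and 0.103 to 0.245 for EFTUD2), and neither was called when the 4 libraries compared were fitted alone (0.169 and 0.180). EFTUD2 was also not called without the filter on low values (0.0676), and without replicate 1 of the control siRNA DDX23 was called in addition (-0.64, adjusted p = 0.0431), whereas without replicate 2 of the control siRNA DDX23 differed by -0.11 (adjusted p = 0.793). The 9 mitochondrially encoded genes summed to 28065 and 25735 FPKM in the knockdown libraries, against 25454 and 12584 FPKM in the control siRNA libraries. Replicate 2 of the control siRNA was the lowest of all 14 libraries in this sum and the highest in gene FPKM of EFTUD2, DDX23, DHX8 and DHX16. Without it the log2 differences were -0.58 for DDX46, -0.46 for EFTUD2, -0.31 for SNRNP200, 0.32 for DHX15, -0.06 for DHX8, -0.04 for DHX38, 0.02 for DHX16 and 0.05 for AQR, and the part of mitochondrial RNA in them was not tested.

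**Figure D3:**
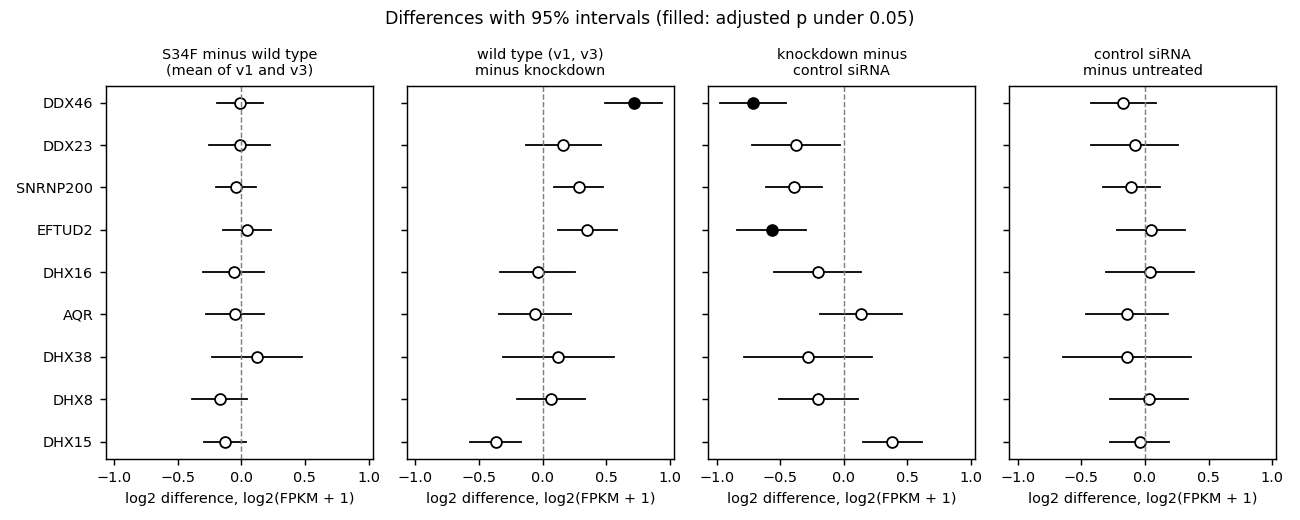
Log2 differences of gene FPKM + 1 (x axis) of the 9 genes in 4 comparisons, with 95% intervals as lines and filled points for adjusted p under 0.05. DDX46 is called in the knockdown (-0.71) and the re-expression (0.72) comparison and EFTUD2 in the knockdown one (-0.57), while the S34F intervals all include 0.

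Wild-type U2AF1 given back to depleted cells was set against the knockdown. These contrasts share the knockdown libraries with the one above, so they are not independent of it and the values are given side by side. DDX46 rose in the wild-type libraries (69.5, 74.2, 77.8 and 86.8 FPKM, against 47.8 and 45.0 FPKM in the knockdown), with a log2 difference of 0.72 ± 0.10 (SE, limma, adjusted p = 0.0107). It was the 1 gene of 9 called, where 1.43% of all genes were called in either direction and 1.04% in the higher one.

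EFTUD2 had 147 to 149.8 FPKM in the 4 wild-type libraries, above both knockdown libraries, with a log2 difference of 0.35 ± 0.11 (SE, adjusted p = 0.141). For SNRNP200 the difference was 0.28 ± 0.09 (SE, adjusted p = 0.154) and for DHX15 it was -0.37 ± 0.09 (SE, adjusted p = 0.0801). The other 5 genes differed by -0.06 to 0.16. From protein-coding isoforms only, the difference was 0.07 for SNRNP200 (adjusted p = 0.820), 0.44 for EFTUD2 (0.0562), 0.73 for DDX46 (0.00284) and -0.48 for DHX15, which was then called (0.0372). With the replicate block 3 genes were called, DDX46 (adjusted p = 0.00307) and EFTUD2 (0.0479) higher and DHX15 (0.0239) lower, against 7.52% of all genes. The DDX46 call was lost without replicate 1 or replicate 2 of the knockdown (adjusted p = 0.0785 and 0.214) and with the compared groups fitted alone (0.0642).

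Set against the control siRNA, the wild-type libraries, which hold 22.2 times (v1) and 24.1 times (v3) the control's mean U2AF1 FPKM, did not differ detectably in any of the 9 genes (0 called, against 0.436% of all genes, 1940 genes at an unadjusted p under 0.05, limma). DDX46 differed by 0.00 with a 95% interval of -0.22 to 0.22, and EFTUD2 by -0.22 with an interval of -0.45 to 0.02. Over the 9 genes the bounds ran from -0.60 to 0.36. The control siRNA with empty vector against untreated cells gave 0 calls among the 9 genes and 0% among all (730 genes at an unadjusted p under 0.05), with differences of -0.17 for DDX46 to 0.05 for EFTUD2.

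The S34F mutation itself was compared with wild type over both U2AF1 isoforms. None of the 9 genes was called, where 1.85% of all genes were (264 genes, with 2266 at an unadjusted p under 0.05, limma). DDX46 had 72.2, 65.0, 86.5 and 83.8 FPKM in the S34F libraries, against 69.5, 74.2, 77.8 and 86.8 FPKM in the wild-type libraries, and the groups overlapped within each U2AF1 isoform. The log2 difference of DDX46 was -0.01 with a 95% interval of -0.19 to 0.17.

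The smallest p among the 9 belonged to DHX8, the mRNA release helicase (-0.17 ± 0.10, SE, adjusted p = 0.452), and DHX15 followed (-0.13 ± 0.07, SE, adjusted p = 0.461). DHX8 had 32.0, 31.8, 25.9 and 31.5 FPKM in the S34F libraries, against 30.4, 36.3, 33.2 and 37.1 FPKM in the wild-type libraries, and the groups overlapped with v3 but not with v1. The share of all genes with such a gap was not counted. Across the 9 genes, differences ran from -0.17 to 0.12 and interval bounds from -0.39 to 0.48. These bounds pool the intervals of 9 genes and are not a limit of detection, since each gene is limited by its own interval. For SNRNP200 it was -0.20 to 0.12. Differences within a gene's own interval may have gone undetected.

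Split by U2AF1 isoform, S34F gave 0 calls among the 9 genes with v1 (0.176% of all genes, 1413 at an unadjusted p under 0.05) and 0 with v3 (0.0211% of all, 917 at an unadjusted p under 0.05). The difference between the 2 effects gave 0 calls among the 9 and 0% of all genes (101 at an unadjusted p under 0.05). Wild-type v3 against wild-type v1 also gave 0 calls among the 9 and 0% of all (150 at an unadjusted p under 0.05). DDX46 had a lower mean with v3 than with v1 for both wild type and S34F, as did DDX23, SNRNP200, DHX38 and DHX16. DHX15, DHX8, AQR and EFTUD2 did not. For DDX46 the wild-type means were 71.8 ± 3.30 FPKM with v3 and 82.3 ± 6.37 FPKM with v1 (SD, n = 2 each). The log2 difference of -0.19, with a 95% interval of -0.45 to 0.06, did not pass the test (limma, adjusted p = 1). S34F v3 against S34F v1 was not tested.

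Transcript types were taken from GENCODE release 29, which gave a type for 104 of the 106 isoforms. Protein-coding isoforms held most of the FPKM of each gene, with means over 14 libraries of 97.7% for DHX16, 97.5% for DHX8, 84.1% for AQR, 79.4% for DHX15, 78.6% for DDX23, 76.8% for DDX46, 75.7% for SNRNP200, 61.2% for DHX38 and 55.5% for EFTUD2. EFTUD2 and DHX38 had the largest retained-intron shares, 29.4% and 35.3%. Isoforms annotated as targets of nonsense-mediated decay, the pathway that degrades transcripts with premature stop codons, held 15.0% of EFTUD2 and 15.7% of DDX46. Many of these non-coding isoforms are short fragments of annotation (600 bases for ENST00000589825 of EFTUD2), and FPKM divides by length, so a share is of FPKM and not of reads.

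The leading isoform was protein-coding in 8 genes, holding on average 83.8% of AQR (ENST00000156471), 79.4% of DHX15 (ENST00000336812), 75.7% of SNRNP200 (ENST00000323853), 74.3% of DHX16 (ENST00000376442), 73.1% of DDX23 (ENST00000308025), 67.4% of DDX46 (ENST00000354283), 53.8% of DHX38 (ENST00000268482) and 40.3% of DHX8 (ENST00000262415). In EFTUD2 the retained-intron isoform ENST00000589825 (26.5%) and the protein-coding ENST00000592576 (26.0%) were about level. The next isoform by FPKM was protein-coding in DHX8 (ENST00000540306, 36.3%) and DHX16 (ENST00000415603, 20.8%), and of the retained-intron type in DHX38 (ENST00000566329, 18.4%), SNRNP200 (ENST00000497539, 9.25%), DHX15 (ENST00000503562, 8.85%) and DDX23 (ENST00000551098). In DDX46 (ENST00000507392, 13.1%) and AQR (ENST00000543879, 7.04%) it was of the decay type.

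**Figure D4:**
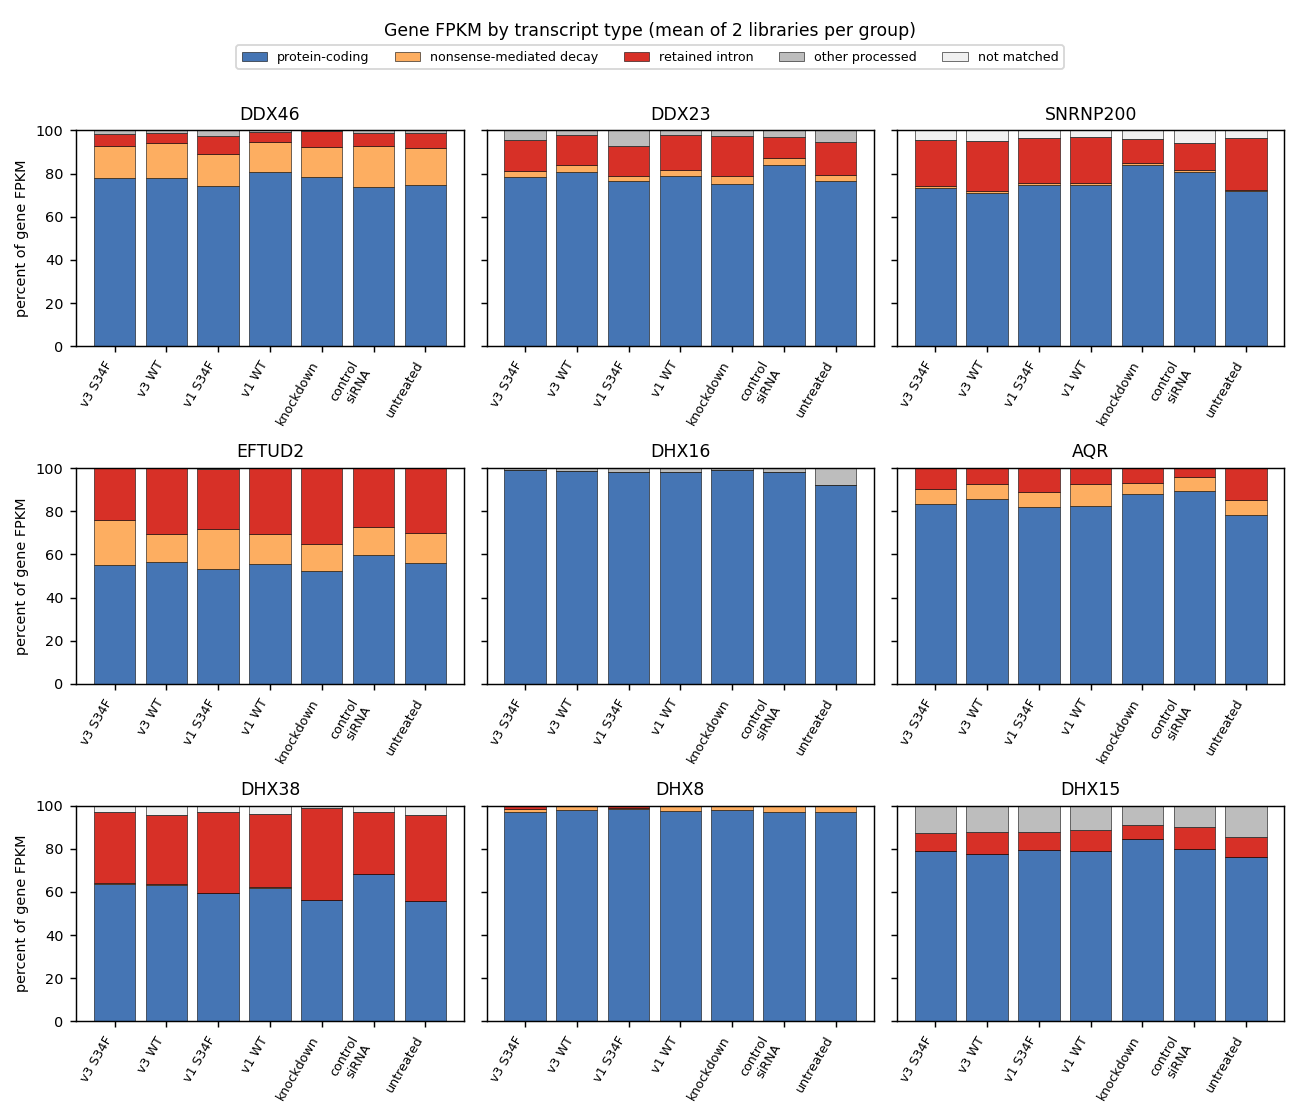
Share of gene FPKM (y axis, percent) by annotated transcript type for each gene, as the mean of 2 libraries in each group (x axis). DHX16 and DHX8 are nearly all protein-coding, while retained-intron isoforms hold 29.4% of EFTUD2 and 35.3% of DHX38 on average.

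Usage, the share of a gene's FPKM held by 1 isoform, gave 0 calls among the 26 tested isoforms of the 9 genes in each of the 9 comparisons (limma). The called share of the 41727 isoforms tested was 0.681% for S34F against wild type (5007 at an unadjusted p under 0.05), 0.273% for wild-type re-expression against knockdown (4513) and 0.129% for knockdown against control siRNA (4281). It was 0.00959% for control siRNA against untreated (2145 at an unadjusted p under 0.05), 0.00479% for the wild-type libraries against control siRNA (2640) and 0.00479% for v3 against v1 wild type (1484). For S34F with v1 alone it was 0% (3425), with v3 alone 0% (3074) and for the difference between them 0% (1325).

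The smallest unadjusted p of any member isoform was 0.0219, for ENST00000156471, the leading protein-coding isoform of AQR, which had 90.7% and 88.3% usage in the control siRNA libraries, against 78.7% and 75.3% in untreated cells (12.5 points, limma, adjusted p = 0.938). In the knockdown comparison, differences ran from -11.2 points for ENST00000268482 of DHX38 (48.2% ± 0.15 in the knockdown and 59.4% ± 0.65 in the control siRNA, SD, n = 2 each) to 12.1 points for ENST00000376442 of DHX16 (77.6% ± 8.29 in the knockdown and 65.5% ± 5.37 in the control siRNA). Both are protein-coding isoforms and neither passed the test (adjusted p of 0.637 and 0.556).

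ENST00000551098, the retained-intron isoform of DDX23 whose 3′ splice site is printed above, had 8.67% ± 0.08 usage in the knockdown and 4.37% ± 0.03 in the control siRNA (SD, n = 2 each), and the difference of 4.30 points did not pass (adjusted p = 0.686). In DDX46, the protein-coding isoform ENST00000354283 held 67.9% and 70.1% of the FPKM in the knockdown libraries, against 67.7% and 64.7% in the control siRNA libraries. Its decay-type isoform ENST00000507392 held 12.8% and 12.7% in the knockdown libraries, against 16.3% and 16.7% in the control siRNA libraries, a difference of -3.74 points (95% interval -9.85 to 2.37). In FPKM, ENST00000507392 was also lower in the knockdown libraries, with 6.12 and 5.72 FPKM, against 11.4 and 14.1 FPKM in the control siRNA libraries.

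For EFTUD2, 4 isoforms were tested. In the S34F comparison its decay-type isoform ENST00000588374, named after its values had been seen, had the largest positive difference of the 26, with 17.5%, 19.8%, 13.2% and 20.8% usage in the S34F libraries, against 12.02%, 11.4%, 9.82% and 15.5% in the wild-type libraries. The groups did not overlap with v3 and overlapped with v1. The share of all tested isoforms with such a gap was not counted. The difference was 5.66 ± 2.75 points (SE, 95% interval -0.52 to 11.8) and did not pass (limma, adjusted p = 0.475). Its retained-intron isoform ENST00000589825 had the largest negative one, 23.9%, 16.8%, 28.5% and 18.2% in the S34F libraries, against 28.6%, 27.3%, 30.7% and 25.5% in the wild-type libraries (-6.14 points, 95% interval -17.2 to 4.94, adjusted p = 0.737).

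**Figure D5:**
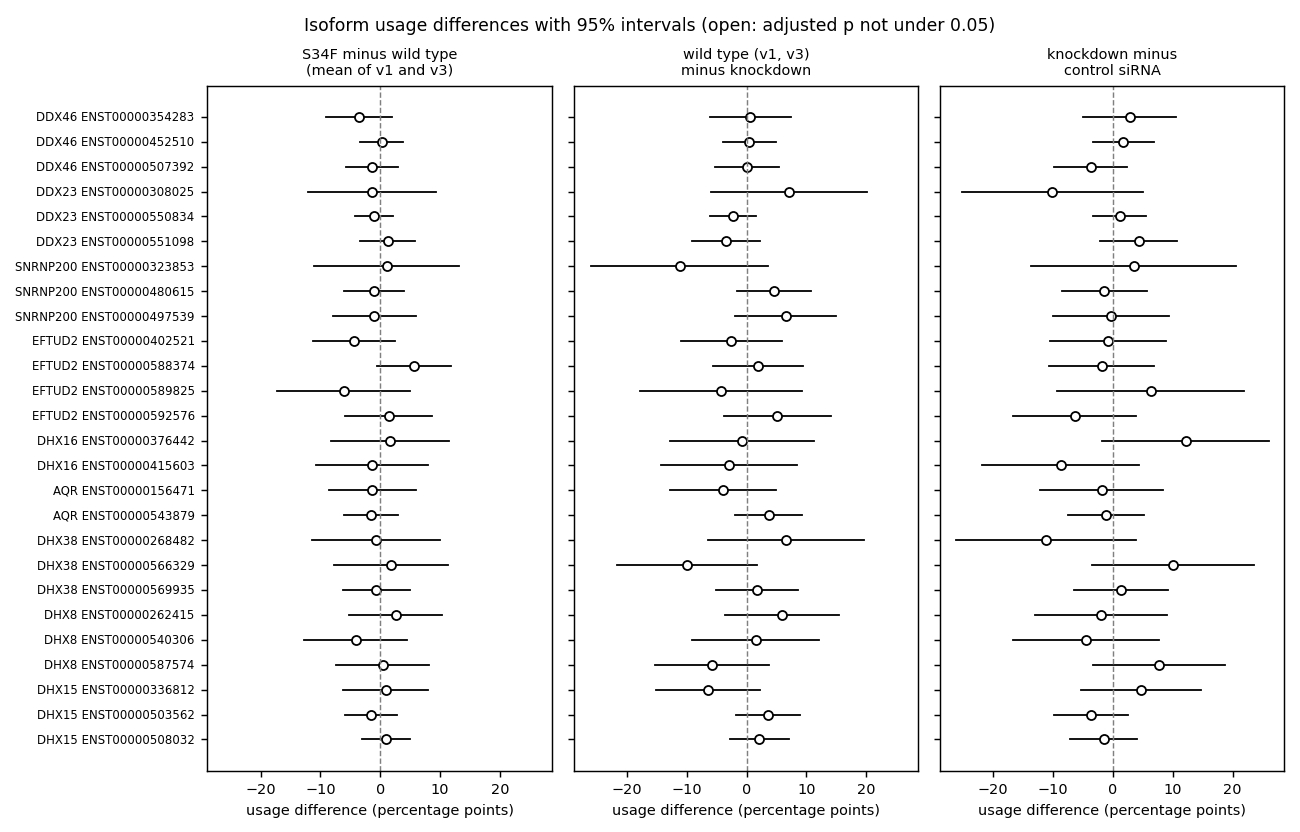
Usage differences in percentage points (x axis) of the 26 tested isoforms in 3 comparisons, with 95% intervals as lines. All points are open, since no adjusted p was under 0.05, and the differences run from -11.2 to 12.1 points in the knockdown comparison.

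The partners of the helicases were examined as lists, with 2.85% of all genes called in the knockdown, 1.43% in the re-expression and 1.85% in the S34F comparison. All counts over these lists are from the fit without the replicate block. Of 13 other tri-snRNP and U5 proteins, none was called in the knockdown, where 11 of 13 were above 0 (median log2 difference 0.20, against -0.01 for all genes). The share of all genes above 0 was not counted. Whether the median of this list depends on replicate 2 of the control siRNA was not tested. In this list 1 of 13, SNRNP40, a U5 protein, fell with S34F (35.0 ± 0.78 and 27.6 ± 4.21 FPKM in v3 and v1 S34F, against 46.7 ± 4.19 and 45.4 ± 2.40 FPKM in v3 and v1 wild type, SD, n = 2 each, log2 difference -0.56, limma, adjusted p = 0.0124). SNRNP40 was not called with the compared groups fitted alone (limma, adjusted p = 0.0734). None of the 13 U2 snRNP partners of DDX46 and none of the 11 catalytic step factors tested was called in the knockdown, re-expression or S34F comparisons (medians between -0.08 and 0.07).

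G-patch proteins activate DEAH-box helicases, DHX15 among them. Of 20 tested, 1 rose and 1 fell in the knockdown, where 2.85% of all genes were called, so the count over this short list is not a result about the list. NKRF, a partner of DHX15, had 20.2 ± 1.21 FPKM in the knockdown and 12.1 ± 0.59 FPKM in the control siRNA (SD, n = 2 each, log2 difference 0.69, adjusted p = 0.0187). RBM10, a regulator of alternative splicing, had 17.0 ± 0.44 FPKM in the knockdown and 31.3 ± 4.53 FPKM in the control siRNA (-0.83, adjusted p = 0.0235). Neither NKRF nor RBM10 was called with the compared groups fitted alone (limma, adjusted p = 0.169 for each). Both calls were lost without either knockdown library or replicate 2 of the control siRNA (adjusted p of 0.0776 to 0.164 for NKRF and 0.116 to 0.169 for RBM10).

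Of 10 other helicases linked to splicing, DHX9, an RNA and DNA helicase that binds double-stranded RNA, was the 1 called in the knockdown (2.85% of all genes), the re-expression (1.43%) and the S34F (1.85%) comparison, the first and second of which share the knockdown libraries. It had 179 ± 0.94 FPKM in the knockdown, against 125 ± 2.02 FPKM in the control siRNA (0.52, adjusted p = 0.0247), and was lower in the wild-type libraries than in the knockdown (-0.61, adjusted p = 0.0107). With S34F it had 154 ± 12.5 FPKM (v3) and 159 ± 10.4 FPKM (v1), against 117 ± 1.93 FPKM (v3) and 118 ± 1.49 FPKM (v1) with wild type (0.41, adjusted p = 0.0163). Fitted with the compared groups alone, DHX9 was not called in the knockdown (limma, adjusted p = 0.169) or S34F comparison (0.0726). It was called in the re-expression one (0.046). Under quantile normalization the knockdown call was lost too (0.0689). DHX9 kept its direction without each library in turn, at 0.50 to 0.54 in the knockdown and 0.37 to 0.45 in the S34F comparison, but was not called in the knockdown comparison without any 1 of its 4 libraries (adjusted p of 0.0544 to 0.168). In the re-expression comparison the call was lost without either knockdown library (adjusted p of 0.0929 and 0.164), and in the S34F comparison without any of the 4 wild-type libraries or replicate 2 of either S34F group (adjusted p of 0.0669 to 0.0815).

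Of 19 proteins of the Prp19 complex and related ones, CDC5L, a core subunit, was the 1 called in the re-expression comparison (1.43% of all genes), and was lower in the wild-type libraries (11.7 ± 0.57 and 11.5 ± 0.38 FPKM for v3 and v1) than in the knockdown (17.5 ± 0.36 FPKM, log2 difference -0.55, adjusted p = 0.0444). CDC5L was not called with the compared groups fitted alone (limma, adjusted p = 0.105) or under quantile normalization (0.0516). That call was lost when any 1 of the 6 libraries was left out (adjusted p of 0.0950 to 0.376). The SNRNP40 call was lost without either v1 wild-type library, replicate 2 of v3 wild type or replicate 2 of v3 S34F (adjusted p of 0.0512 to 0.0727).

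The genes whose log2(FPKM + 1) followed DDX46 most closely over the 14 libraries were NUP93 (Pearson r = 0.912), TTC25 (0.908) and DNM2 (0.905). For EFTUD2 they were SNX1 (0.958), SRPK1 (0.946) and NCAPH (0.944). These values describe the same 14 libraries, which share their groups and depth. Because the 6 genes were picked by values that include the knockdown libraries, their knockdown results follow in part from that choice. They are not independent of DDX46 and EFTUD2, and 2.85% of all genes were called in that comparison. In the knockdown comparison, 2 of these 6 genes passed the test, DNM2 (-0.68, adjusted p = 0.0366) and NCAPH (-0.91, adjusted p = 0.0122). The other 4, NUP93 (-0.25, adjusted p = 0.240), TTC25 (-0.75, 0.0747), SNX1 (-0.47, 0.0565) and SRPK1 (-0.56, 0.104), did not pass. TTC25 lay near the filter of 1 FPKM, with 1.01 ± 0.34 FPKM in the knockdown and 2.36 ± 0.06 FPKM in the control siRNA (SD, n = 2 each).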

How the data were processed

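RNA from 14 A549 libraries was measured in 7 groups of 2, with groups and replicate numbers from the labels. Per the submitters' processing notes, Trimmomatic 0.30 and TopHat2 2.0.12 were run on GRCh37, and the quantifier with its annotation is not given in the sources used here. In the tables, per the file headers, the authors deposited an FPKM with confidence bounds for each isoform, and a coverage value. Coverage divided by FPKM was nearly constant within a library and gave the relative depth; the number of reads is unknown, so no counting interval is given.

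Gene FPKM was summed over the isoforms sharing a gene identifier, and usage was the percent of that sum. Both were fitted with limma 3.58.1 in R 4.3.3 (intensity trend, a mean per group, 7 residual degrees of freedom), genes as log2(FPKM + 1), which understates changes of low genes, with a mean FPKM of at least 1, and isoforms with a mean usage of 5 to 95 percent. P-values were Benjamini-Hochberg adjusted over all 14233 genes or 41727 isoforms within each of 9 comparisons, and an adjusted p under 0.05 was called. The code was tested on simulated data. The genes and lists were chosen with earlier results of these data known. All 9 genes are named, with their values per library or as a range, with their 2 isoforms of highest FPKM, the called genes of each list and the 3 genes most correlated with each gene called in the knockdown.

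Replicate numbers came from the titles. The differences between replicates 1 and 2 correlated between groups at 0.160 to 0.571 for genes (21 of 21 pairs over 0.1). The numbers therefore pair the libraries at gene level. For the 9 genes, the replicate block is given beside the results it changes. The calls among the listed partner genes also held with the block, with the same sign (limma, adjusted p of 0.00307 to 0.00806). Which other listed genes the block would call is not given. For usage 10 of 21 pairs passed. Alternatives were the pseudocount, filters, upper quartile and quantile scaling, isoforms of at least 300 bases, the replicate block, the compared groups alone, each library left out, an arcsine transform and, added after seeing the data, protein-coding isoforms only. Transcript types and 3′ splice sites came from GENCODE release 29 and promoters from RefSeq (both GRCh38, never joined with GRCh37 coordinates). No set test was run.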

Additional observations from a re-analysis of the deposited data

How the results depend on the processing

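For the 9 genes in the knockdown comparison, 2 were called as reported, 1 without a filter on low values, 4 with the replicate block, 0 with the compared groups alone and 0 to 3 with a library left out. In the re-expression comparison 1 was called, against 2 from protein-coding isoforms only, 3 with the replicate block, 0 with the compared groups alone and 0 to 1 with a library left out. The other 7 comparisons of gene FPKM and all 9 of usage kept 0 calls among the 9 genes and their isoforms under each alternative run.

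Over all genes, knockdown calls numbered 405, against 241 (no filter), 754 (protein-coding only), 1681 (replicate block), 0 (compared groups alone) and 15 to 274 (a library left out). Re-expression gave 203, against 380 (protein-coding only), 1070 (replicate block), 20 (compared groups alone) and 5 to 57 (a library left out). S34F gave 264, against 506 (protein-coding only), 1136 (replicate block), 39 (compared groups alone) and 47 to 332 (a library left out). Over all isoforms, usage calls numbered 54 for the knockdown, against 13 (arcsine), 5 (usage of 10 to 90 percent), 0 (compared groups alone) and 5 to 59 (a library left out). Re-expression gave 114, against 51 (arcsine), 54 (usage of 10 to 90 percent), 0 (compared groups alone) and 6 to 86 (a library left out). S34F gave 284, against 180 (no filter), 0 (compared groups alone) and 7 to 419 (a library left out). With the replicate block, usage calls numbered 39 higher and 23 lower (knockdown), 41 and 113 (re-expression), and 246 and 169 (S34F). Fewer samples enter the fits with compared groups alone or a library left out, and a lone library is assumed to vary like the others; the other causes were not tested.

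No gene called as reported changed direction. Among uncalled differences, signs turned with a library left out for DHX16 in the knockdown (-0.4277 to 0.0159) and re-expression (-0.0828 to 0.0055) comparisons and AQR in the re-expression one (-0.1233 to 0.0059). In the S34F comparison the leave-one-out ranges were -0.0468 to 0.0312 for DDX46, -0.0532 to 0.0257 for DDX23, -0.0833 to 0.0020 for SNRNP200, -0.0452 to 0.287 for DHX38 and -0.1083 to 0.0061 for AQR, with 0.0027 for DDX46 under quantile normalization and -0.0070 for EFTUD2 from protein-coding isoforms only. With 2 libraries a group, usage differences of the 26 isoforms had a median SE of 4.40 points in the knockdown comparison and 3.11 points in the S34F one, which limits what could be detected.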

Other observations

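The order of the replicates was the same in all 7 groups for 7 of the 26 tested isoforms of the 9 genes, against 8.17% of all 41727 isoforms tested. Usages of isoforms of 1 gene are shares of 1 sum, so the 7 are not independent. Replicate 1 was the higher in usage of the leading protein-coding isoforms of AQR (ENST00000156471), DDX23 (ENST00000308025) and SNRNP200 (ENST00000323853) and of the retained-intron isoform ENST00000589825 of EFTUD2. Replicate 2 was the higher for ENST00000543879 of AQR and for the retained-intron isoforms ENST00000551098 of DDX23 and ENST00000569935 of DHX38. For gene FPKM, none of the 9 genes kept 1 order in all 7 groups, where 21.2% of all genes did. The widest gap in a retained-intron share within a group was in untreated cells for SNRNP200, at 13.4% in replicate 1 and 34.7% in replicate 2. These counts were made after the values had been seen, and what the replicate numbers stand for is not given by the labels.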
